A study of Rattus norvegicus with 4 samples.

Results

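Ribosomal protein genes were followed through the cell classes of day 4 rat skin wounds. Members were taken by symbol: every row whose symbol starts with Rpl or Rps and a digit, or is Rplp0, Rplp1, Rplp2 or Rpsa, without the kinase genes that start with Rps6k. The rule found 98 of 23999 rows, which carry 88 distinct symbols, 59 rows named for the large and 39 for the small ribosomal subunit. Of these rows, 81 carry 73 of the 80 standard symbols of cytosolic ribosomal proteins, and 17 carry other names such as Rpl22l1, Rps27l and Rps19bp1. Droplet-based single-cell RNA sequencing (10x Genomics) gave 4 libraries, 2 from wounds into which purified migrasomes had been injected and 2 from wounds that received nothing. Migrasomes are vesicles that migrating cells leave on their retraction fibres, and an injection as such cannot be told apart from what it carried. The labels give skin as the tissue and no strain, age, sex or wound size, and they do not say that the libraries came from separate animals, so p-values reflect only how far these libraries differ, and part of that may be technical.

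Every ribosome is built from a small subunit, which reads the messenger RNA, and a large subunit, which joins the amino acids. Each subunit holds ribosomal RNA and a fixed set of proteins, so cells make these proteins in matched amounts, and their messengers are among the most abundant of any growing cell. In vertebrates most of these messengers begin with a C and a run of pyrimidines, the 5′ terminal oligopyrimidine tract, through which their translation follows growth signals. Some members have a close relative with another pattern of use (Rpl3l in muscle, Rpl10l and Rpl39l in testis, Rpl22l1 and Rps27l more widely), and Rpl5 and Rpl11 also bind the p53 regulator Mdm2. Mature neutrophils are known for little new ribosome production.

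Start windows of 8 members are printed to show the tract in genes that the results turn on. They come from RefSeq (GRCr8), 15 bases to either side of the annotated start, and capitals mark a C followed by at least 4 C or T, with the run it opens. They were searched on the gene's own strand, within 10 bases of the start.
Rps13, chr1:180009646-180009675, minus strand: gccgtttcctacctcgttCTCTCTTTgctt
Rps21, chr3:187724023-187724052, plus strand: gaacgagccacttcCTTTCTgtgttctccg
Rpl37, chr2:55942930-55942959, plus strand: tggtaggcgtactttCTCTTCCggtctctt
Rplp1, chr8:71290858-71290887, minus strand: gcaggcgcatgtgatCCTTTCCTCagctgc
Rps9, chr1:74430423-74430452, minus strand: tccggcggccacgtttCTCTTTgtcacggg
Rpl13a, chr1:104748899-104748928, minus strand: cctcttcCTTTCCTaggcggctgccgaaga
Rplp0, chr12:46718376-46718405, minus strand: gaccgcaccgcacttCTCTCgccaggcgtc
Rpl3, chr7:113507976-113508005, minus strand: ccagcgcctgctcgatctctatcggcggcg

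The motif stood exactly at the annotated start in 21 of the 67 members that RefSeq matched by symbol (31.3%), against 2.63% of all 33469 promoters in the table. Within 10 bases of the start it was found in 48 members (71.6%), against 28.9% of all promoters. Rpl37, Rplp1 and Rplp0 carried it at the start, and Rpl3 had no match in this window, where only these letters were searched.

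The libraries held 75823418 to 105605297 UMIs (unique molecular identifiers, which count captured RNA molecules). The 33727 kept cells had medians of 2092.5 and 4922.5 UMIs in uninjected 1 and 2, and 3451 and 7915 in injected 1 and 2. Between 0.161% and 0.346% of cell barcodes of the smaller library were shared in any pair of libraries. Cells were assigned to classes by marker genes, none of them a ribosomal protein gene, and 29108 cells fell into 7 classes with at least 50 cells in every library: keratinocytes, fibroblasts, endothelial cells, macrophages, neutrophils, mast cells, and T and NK cells. The smallest groups were 50 endothelial, 53 macrophage and 54 mast cells, all in uninjected 1. The class's own marker list was the highest in every class, which the assignment by these same lists largely fixed, so it is no check of the classes. It ran from 2692 CPM (the UMIs of a gene scaled to a common library total) in T and NK cells to 97257 in mast cells. At most 1 of its markers was at 0 in a library. In keratinocytes the macrophage list also reached 8182 to 18474 CPM, and 99.9% or more of that was Apoe, with the other macrophage markers making up the rest. In neutrophils the keratinocyte list, led by Krt17, came to 1254 to 4994 CPM, the highest value in uninjected 1, and its part in the results was not tested.

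Of the 98 members, 69 passed the filter on low counts in every class and 12 in no class. The counts were uneven even among standard symbols. Over the cells of the 7 classes Rpl8 had 0 UMIs, Rpl35a 1, Rpl7a 6 over its 2 rows, Rpl38 51, Rps6 68 and Rplp2 890. Rps6, a small subunit protein known as the target of S6 kinase, and the others of this group are needed in every ribosome, so a count near 0 is not read as absence of the messenger. Ribosomal protein genes have many near-identical copies, reads that fit several copies can be left out or split in counting, and this was not tested here. Levels of single genes are therefore compared between cells and libraries and not between genes.

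Before any comparison of groups, uninjected 1 differed from the rest in its ribosomal protein messengers. They made up 18.5% of UMIs over its cells, against 10.1% in uninjected 2, 8.48% in injected 1 and 10.2% in injected 2. In its empty droplets, barcodes with at least 50 and fewer than 250 UMIs that hold free RNA, they took 27.6%, against 11.5%, 11.4% and 11.4%. The median empty droplet of this range held 141 UMIs in uninjected 1 and 59 to 62 in the others. Values without this library are given below for the class differences in share, the class counts and the comparison of injected with uninjected wounds.

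Neutrophils gave the smallest part of their UMIs to ribosomal protein genes in all 4 libraries, and keratinocytes the largest in 3 of 4, with T and NK cells above them in injected 1. Keratinocytes had 20.2% in uninjected 1, 11.4% in uninjected 2, 9.88% in injected 1 and 11.6% in injected 2. T and NK cells had 18.3%, 9.40%, 10.3% and 9.92% in the same order, and fibroblasts 17.5%, 10.2%, 8.73% and 8.89%. Endothelial cells followed with 15.1%, 7.44%, 8.42% and 8.29%. Mast cells had 13.2%, 7.41%, 5.80% and 7.12%, and macrophages 11.0%, 5.42%, 4.32% and 4.87%. Neutrophils had 4.87%, 1.56%, 1.19% and 1.53%. In each class uninjected 1 was above the other 3 libraries, and those lay close together.

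**Figure D1:**
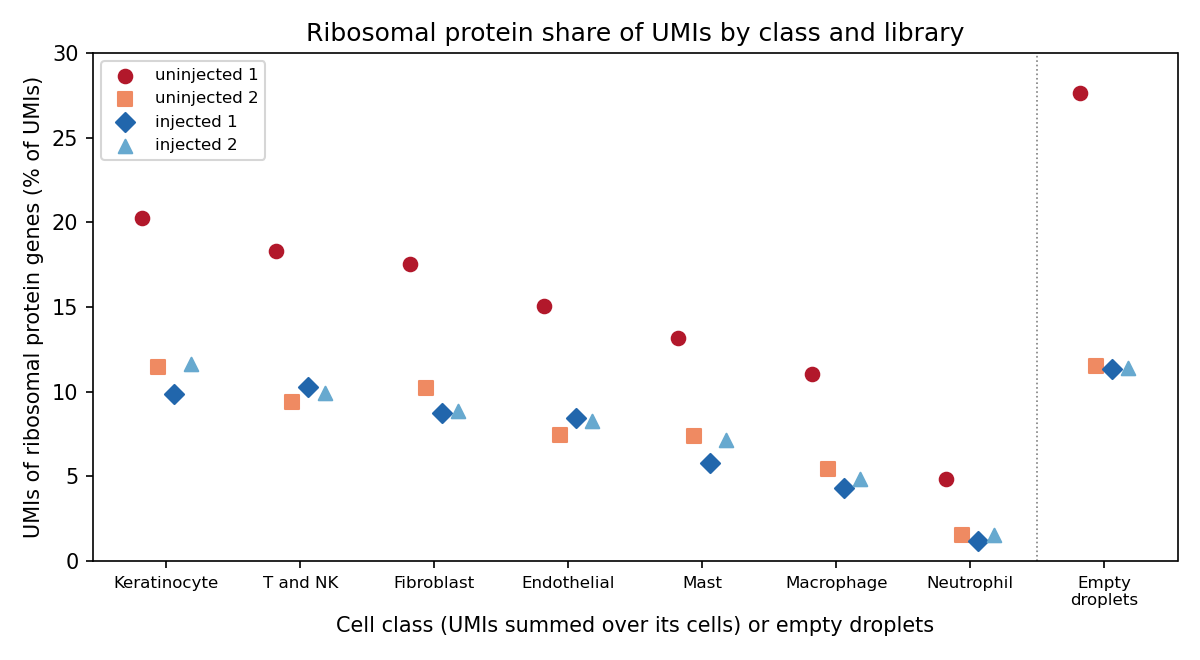
Share of UMIs from ribosomal protein genes (y axis, percent) in 7 cell classes and in empty droplets (x axis), with 1 point per library. Uninjected 1 is the highest point in every column, and the classes fall in level from keratinocytes at 9.88% to 20.2% to neutrophils at 1.19% to 4.87%.

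Against the mean of the other 6 classes within the same library, keratinocytes were higher by 4.93 ± 1.45 percentage points (SD over 4 libraries), T and NK cells by 3.38 ± 1.10 and fibroblasts by 2.65 ± 0.949. All 4 libraries showed that direction for each of them. Neutrophils were lower by 7.92 ± 2.08 percentage points and macrophages by 3.10 ± 0.551, also in 4 of 4 libraries. Mast cells differed by −0.807 ± 0.610 percentage points, below the others in 4 of 4, and endothelial cells by 0.861 ± 0.764, above them in 3 of 4. Without uninjected 1 the means were 4.27 in keratinocytes, 2.96 in T and NK cells, 2.28 in fibroblasts, 0.853 in endothelial cells, −0.635 in mast cells, −2.86 in macrophages and −6.88 in neutrophils, all in the same direction. The exact two-sided sign-flip permutation test over 4 libraries cannot give a p below 0.125, which is the value of each class but the endothelial one (exact p = 0.25). Neighbours in the order were not all apart: keratinocytes exceeded T and NK cells by 1.33 ± 1.15 percentage points in 3 of 4 libraries, and T and NK cells exceeded fibroblasts by 0.628 ± 1.01 in 3 of 4. Each lower step was in the same direction in 4 of 4 libraries, with macrophages above neutrophils by 4.13 ± 1.40 points. Counting error alone was small: the widest 95% Wilson interval of a share spanned 0.192 percentage points on each side of it, in mast cells of uninjected 1.

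The neutrophil share contained the most RNA that could be free. If each cell held as many free UMIs as the median empty droplet of its library, free RNA would account for 70.3% of the ribosomal UMIs of neutrophils in uninjected 1, 27.6% in uninjected 2, 39.2% in injected 1 and 29.7% in injected 2. With that amount taken away, the neutrophil share was 1.65%, 1.17%, 0.751% and 1.12%. The neutrophils of uninjected 1 then stood less far above the other libraries, and neutrophils still had the lowest share of the 7 classes in each library. In the other classes at most 13.3% of ribosomal UMIs could be free, in mast cells of uninjected 1.

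Gene by gene, edgeR's quasi-likelihood test with a term for the library placed most members with their class. In keratinocytes 76 of 81 tested members were higher than in the mean of the other classes and 2 were lower, where 38.7% of all genes were higher and 24.1% lower. In fibroblasts 72 were higher and 1 lower (all genes 38.1% and 27.1%). In neutrophils 73 were lower and 2 higher (all genes 29.2% and 32.1%), and in macrophages 47 were lower and 0 higher (all genes 18.7% and 20.7%). The members' median log2 difference was 0.88 in keratinocytes, 0.59 in fibroblasts, −0.39 in macrophages and −0.85 in neutrophils, beside medians of all genes of 0.18, 0.13, −0.10 and −0.03. Without uninjected 1 the number called, in either direction, was 77 in keratinocytes, 71 in fibroblasts, 75 in neutrophils and 41 in macrophages, of 80 members. All genes called there were 7391, 7792, 7004 and 4676 of 12144. Without uninjected 2, injected 1 or injected 2 it was 27 of 81, 23 of 82 and 27 of 82 members in macrophages. All of these were lower. In the same fits 3715 of 11959, 3441 of 11798 and 3347 of 12460 genes were called in macrophages, of which 1567, 1401 and 1421 were lower. These log2 values are relative to TMM scaling, and with total UMIs as the scale the median of all genes in neutrophils moved from −0.03 to −1.62 and that of the members to −2.43.

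For the remaining classes the counts hung on the scale, and in endothelial and mast cells so did the direction. In T and NK cells the members' median was above 0 under both scales, at 0.23 with TMM and 0.79 with total UMIs. T and NK cells had 27 members higher and 4 lower (all genes 27.7% and 26.2%), endothelial cells 3 and 5 (all genes 19.8% and 15.2%), and mast cells 1 and 33 (all genes 12.2% and 15.8%). With total UMIs as the scale these counts became 73 and 1 in T and NK cells, 53 and 0 in endothelial cells and 16 and 2 in mast cells. Of all 12015 genes, 5823 were then higher and 1595 lower in T and NK cells. In endothelial cells 5969 genes were higher and 872 lower, and in mast cells 2833 and 777. The medians of all genes in these classes moved to 0.53, 0.58 and 0.27 from −0.04, 0.03 and −0.23. The members' median lay below that of all genes in endothelial cells under both scales. In mast cells it lay below under both scales but above with no filter (−0.42 against −0.53), the stricter gate (−0.28 against −0.38) and Leiden clusters (−0.28 against −0.32). Without uninjected 1 the number called of 80 members was 36 in T and NK cells, 11 in endothelial cells and 29 in mast cells. Of all 12144 genes 6259, 4061 and 3128 were called there. The T and NK count fell from 31 to 16, 11 and 15 without uninjected 2, injected 1 or injected 2. All genes called in T and NK cells were 5501 of 11959, 5177 of 11798 and 5535 of 12460 in those fits. The endothelial count fell from 8 to 5 and 4 without uninjected 2 or injected 1, where 3640 and 2673 of all genes were called.

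Among single members, Rpl13a, a large subunit protein also known for silencing inflammatory messengers, was the member that differed most towards keratinocytes, by 1.26 (log2, TMM scale, SE 0.12, adjusted p = 6.4e-10). Rpl10a, of the large subunit, was higher there by 1.20. In fibroblasts Rps4y2, a relative of the small subunit gene Rps4x, was higher by 2.81 (SE 0.18, adjusted p = 2.48e-13) and Rps27l, a relative of Rps27 known as a p53 target, by 1.38. Rpl21 (ENSRNOG00000000957), of the large subunit, came next at 1.02. In neutrophils Rpsa, the small subunit protein also known as a laminin receptor, fell by 1.30 on the log2 scale and Rpl29 by 1.23. Rps19bp1, which is named for binding Rps19 and is no standard ribosomal protein, fell by 1.29. In macrophages Rpl36al, a relative of Rpl36a, fell by 1.09, Rpl36a itself by 0.78 and Rpl31 by 0.74. In mast cells Rpl13a fell by 1.71, Rpl9 by 0.89 and Rps9 by 0.86. In T and NK cells Rps4y2 fell by 1.46 and Rps27l by 0.92, while Rpl7l1, a ribosome assembly factor, differed by 0.67 (edgeR, adjusted p = 0.0322) on 1, 33, 27 and 12 UMIs in uninjected 1, uninjected 2, injected 1 and injected 2. The other calls named by the rule were smaller. Rpl24 and Rpl30 had 0.33 and 0.32 in fibroblasts, Rpl10 had 0.45 and Rps4y2 −0.73 in keratinocytes, and Rps12 had −0.34 in neutrophils. Rps15, Rps10 and Rpl30 had −0.33 in macrophages, and Rpl12 and Rpl13 had 0.51 and 0.49 in T and NK cells. Rps4y2, Rps27l and Rpl13a had 1.34, 0.60 and 0.49 in endothelial cells. Several calls near 0 turned with the scale: Rpl41 in T and NK cells had −0.32 with TMM and 0.25 with total UMIs, Rplp0, Rps27 and Rps9 in endothelial cells had −0.40, −0.43 and −0.52 against 0.13, 0.09 and 0.01, and Rpl7 in mast cells had −0.32 against 0.17. Rpl37 in mast cells had 0.31 and 0.79.

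To separate a change of 1 ribosomal protein gene from a change of all of them, the same test was run with ribosomal UMIs as the scale. On this scale other genes move against the ribosomal share, so the percentages over all genes describe that share as much as the genes. Of the 81 members 10 were higher and 30 lower in neutrophils (all genes 48.1% and 7.07%), 19 higher and 7 lower in fibroblasts (22.3% and 44.1%), and 8 higher and 6 lower in keratinocytes (14.7% and 54.6%). In mast cells 14 were higher and 8 lower (19.3% and 7.42%), in T and NK cells 9 and 7 (21.5% and 30.2%), in macrophages 4 and 5 (28.5% and 9.97%) and in endothelial cells 8 and 2 (24.6% and 11.2%). The members' median lay between −0.19 and 0.09 in every class. Of these 137 calls over the 7 classes, 48 were made again without each of the 4 libraries in turn.

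Rps9, a small subunit protein close to the site where the messenger is decoded, stood out in neutrophils. It had 556 of every 10000 ribosomal UMIs there in uninjected 1, 1098 in uninjected 2, 639 in injected 1 and 738 in injected 2. In the 24 sums of the other 6 classes it had 117 to 269.6, with a median of 153, so the 2 ranges did not overlap. The log2 difference of neutrophils from the other classes was 2.23 (SE 0.10, adjusted p = 2.56e-17 by edgeR), and 2.09 to 2.34 with each library left out. Of these Rps9 UMIs 18.1%, 4.11%, 8.30% and 5.50% could be free RNA, far less than of the ribosomal UMIs as a whole. On the scale of all UMIs the direction hung on the scaling, at 1.53 with TMM and −0.07 with total UMIs. Rps9 was then low within the ribosomal UMIs of fibroblasts (−0.67) and keratinocytes (−0.60), which are set against a mean that contains the neutrophils, and at 0.30 in macrophages (edgeR, adjusted p = 0.033). The macrophage call was lost without uninjected 2, injected 1 or injected 2 (edgeR, adjusted p = 0.0502, 0.123 and 0.289).

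Other members also changed within the ribosomal UMIs of neutrophils. Rps27, of the small subunit, was higher by 0.77 (SE 0.10, adjusted p = 3.21e-07 by edgeR), at 367, 185, 247 and 263 of every 10000 ribosomal UMIs in uninjected 1, uninjected 2, injected 1 and injected 2. In fibroblasts it had 214, 98.6, 111 and 115 in that order, lower than neutrophils in every library. Rplp0, the stalk protein of the large subunit, was higher in neutrophils by 0.47 and in macrophages by 0.39 (edgeR, adjusted p = 8.35e-05 and 0.00149). It had 351, 1363, 1646 and 1494 in neutrophils and 399, 1217, 1477 and 1359 in macrophages. Rpsa, Rpl23a and Rps19bp1 fell by 0.64, 0.57 and 0.72 on the log2 scale in neutrophils. Rps10 (ENSRNOG00000000490) was at 0.79 there, a call lost without uninjected 2 or injected 2 (edgeR, adjusted p = 0.0546 and 0.0515). Between 39.7% and 82.7% of the neutrophil UMIs of Rpsa could be free RNA, so that its own level there may lie lower.

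Rps4y2 was high in fibroblasts and endothelial cells and low in keratinocytes and T and NK cells. In fibroblasts it had 5.48, 15.1, 11.2 and 10.9 of every 10000 ribosomal UMIs in uninjected 1, uninjected 2, injected 1 and injected 2. In endothelial cells it had 2.49, 6.39, 8.43 and 10.6. In keratinocytes it had 0.659, 1.36, 1.25 and 0.918, below fibroblasts and endothelial cells in every library. The log2 differences were 2.29 (SE 0.19) in fibroblasts, 1.48 (SE 0.23) in endothelial cells, −1.57 (SE 0.24) in keratinocytes and −1.64 (SE 0.29) in T and NK cells, and all 4 passed edgeR's test without each library in turn. Rps4y2 and Rps4x share most of their sequence, and reads of one may be counted for the other. Rps27l was higher in fibroblasts by 0.85 (SE 0.16) and in endothelial cells by 0.74 (SE 0.16), and lower in T and NK cells by a log2 difference of −1.05 (SE 0.19). It had 33.1 to 41.5 per 10000 in fibroblasts, 29.5 to 38.1 in endothelial cells and 7.63 to 16.0 in T and NK cells.

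In mast cells Rpl37 and Rpl41, of the large subunit, were higher within ribosomal UMIs and Rpl13a was lower. Rpl37 had 372, 88.3, 119 and 116 of every 10000 ribosomal UMIs in mast cells and 211, 61.2, 64.8 and 74.7 in keratinocytes, in the order uninjected 1, uninjected 2, injected 1 and injected 2. It was higher in mast cells by 0.71 (SE 0.10, adjusted p = 1.87e-06 by edgeR). Rpl41, the smallest ribosomal protein, was higher in mast cells by 0.46 (SE 0.10) and lower in T and NK cells by −0.47 (SE 0.10). Rpl41 had 1179, 425, 455 and 545 in mast cells and 585, 286, 274 and 306 in T and NK cells. Rpl13a went the other way: it had 2.53, 6.92, 12.0 and 9.45 in mast cells on 4, 13, 16 and 15 UMIs, against 7.70, 26.0, 29.9 and 22.8 in keratinocytes. The log2 difference of Rpl13a was −1.31 (SE 0.17) in mast cells and 0.64 (SE 0.11) in endothelial cells, 0.46 in fibroblasts and 0.42 in keratinocytes. Rpl36a at 0.52 and Rpl39 at 0.87 in mast cells lost their call without injected 2 (edgeR, adjusted p = 0.0764 and 0.062), and Rpl39 also without uninjected 1 (0.636) or uninjected 2 (0.0863), with 17, 2, 1 and 4 UMIs. In macrophages Rpl10, of the large subunit, was higher by 0.46 (SE 0.11), while Rpl36al at −0.77, Rpl36a at −0.47, Rpl31 at −0.43 and Rpl18 at 0.35 each lost their call without injected 2. Rpl10 had −0.41 in fibroblasts and in keratinocytes, and Rpl10a had 0.36 in keratinocytes, a call lost without injected 2. In T and NK cells Rpl12 and Rpl13, at 0.37 and 0.34, also lost their calls without that library. Without uninjected 1 the call of Rpl36al was lost as well, without uninjected 2 those of Rpl31, Rpl18 and Rpl12, and without injected 1 those of Rpl36al and Rpl12.

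**Figure D2:**
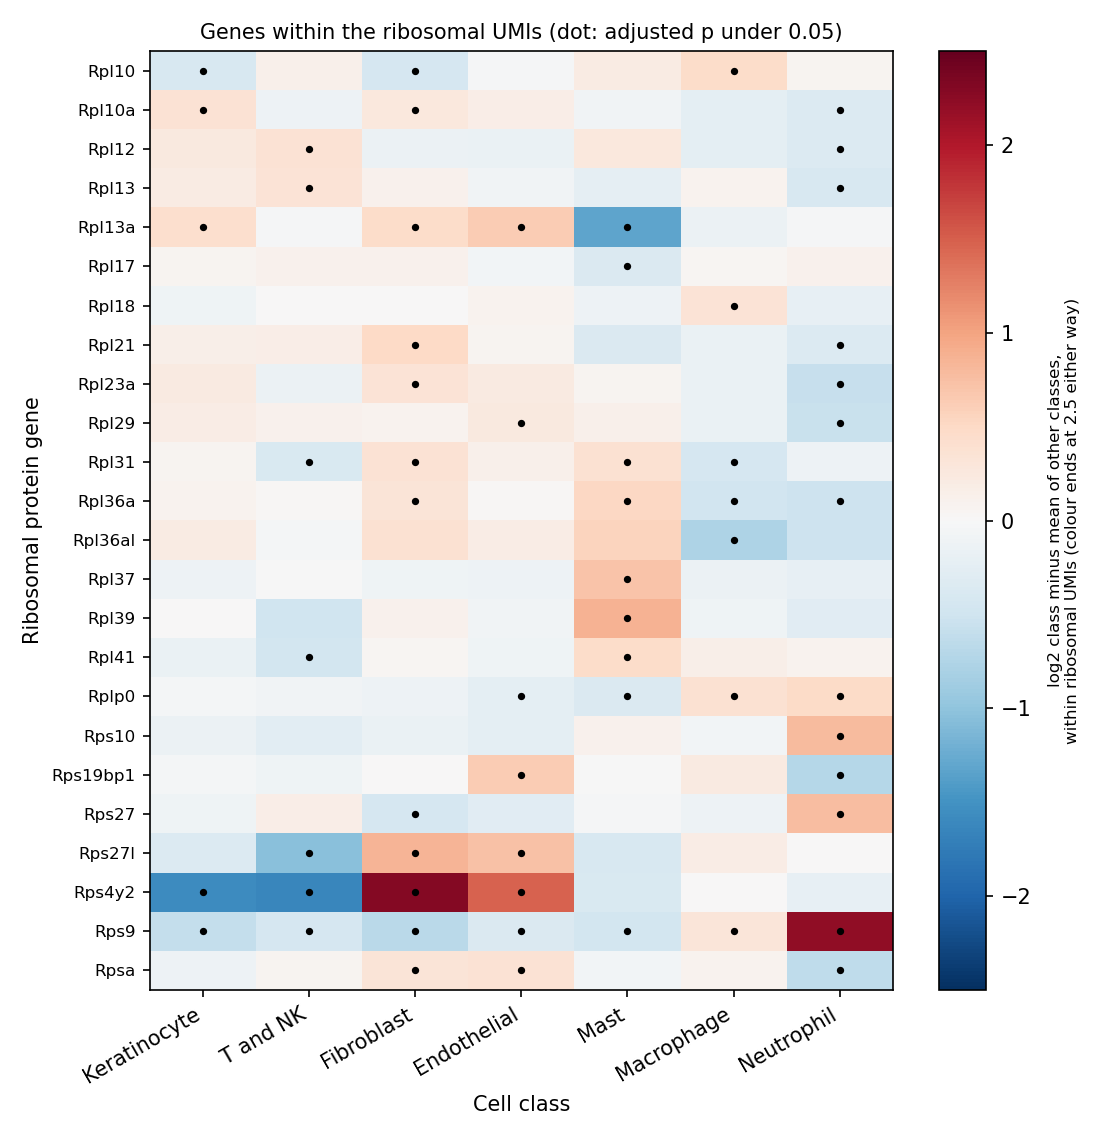
Log2 difference of each class from the mean of the other classes within ribosomal UMIs (colour) for the members of largest and smallest difference per class, all but 3 of them drawn (rows) in 7 classes (columns), where a dot marks an adjusted p under 0.05 in edgeR's test. Rps9 is raised in neutrophils (2.23), Rps4y2 in fibroblasts (2.29) and endothelial cells (1.48), and Rpl13a is low in mast cells (−1.31).

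Of the tissue-restricted relatives, few UMIs were found. Rpl3l had 18, 9, 13 and 4 UMIs in neutrophils of uninjected 1, uninjected 2, injected 1 and injected 2, and 2, 4, 5 and 2 in the keratinocytes, which had many more UMIs in all. It was low in fibroblasts too, with 2, 5, 4 and 0 UMIs. At most 2.97% of the neutrophil UMIs could be free RNA. Rpl3l passed the filter through the neutrophil sums and failed it without uninjected 1 or uninjected 2, so its calls, 1 each in neutrophils, fibroblasts and keratinocytes among the counts above, are not read further. Rpl10l and Rpl39l passed in no class. Rpl10l had 59 UMIs over the 7 classes. Rpl39l had 40 of its 67 UMIs in fibroblasts of uninjected 2. Rpl22l1, the more widely used relative of Rpl22, had 17300 to 141722 UMIs in keratinocytes. Rpl22 itself has no row among the members, and whether its reads were counted for Rpl22l1 was not tested.

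Genes of the same machinery that the rule leaves out went mostly with the members in keratinocytes, fibroblasts and neutrophils, but not in T and NK cells. Of 25 ribosome biogenesis factors, 25 were higher in keratinocytes and 21 in fibroblasts, while 17 were lower in neutrophils and 10 in macrophages (edgeR, TMM scale). Their median log2 differences were 0.92, 0.78, −0.89 and −0.39. Of 18 elongation and initiation factors 17 were higher in keratinocytes (median 0.78) and 11 lower in neutrophils (median −0.61). Of 70 mitochondrial ribosomal protein genes tested, 43 were higher and 2 lower in keratinocytes, 53 and 3 in fibroblasts, and 6 and 49 in neutrophils. In macrophages these mitochondrial genes were split, with 9 higher and 9 lower. In T and NK cells they went against the cytosolic members, with 2 higher and 25 lower. The biogenesis factors had 3 higher and 9 lower in T and NK cells, and the elongation and initiation factors 3 and 5. The background shares of all genes are those given above for the same contrasts.

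The excess in uninjected 1 was uneven over the members, and since this library was singled out by its values it is described with no test. The shift of a gene is its log2 CPM (TMM scale) in uninjected 1 less the mean of the other 3 libraries, taken in each class and given as the median over the 7 classes. Over the 69 members tested in every class the median shift was 1.51, and over all 3472 such genes −0.05. Shifts were 2 or more in 23 members, 1 to 2 in 24, 0.5 to 1 in 6, within 0.5 of 0 in 14, and −0.5 or lower in 2. In 35 of the 69 members the level of uninjected 1 exceeded that of all 3 others by 1 log2 unit or more, whichever class was taken, against 3.05% of all 3472 genes. The medians of the large and small subunit were both 1.51. No member reached that mark in any of the other 3 libraries, and the members' own spread over those 3 libraries had a median of 0.32.

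Rps13, a small subunit protein, had the largest shift, 3.39 with a range of 3.15 to 4.10 over the classes. In keratinocytes, on the scale of total UMIs, it had 2566 CPM in uninjected 1, 285 in uninjected 2, 265 in injected 1 and 364 in injected 2. The row Rps19l2 (ENSRNOG00000037897), a name that RefSeq also lists as a synonym of Rps19, came next at 3.33. Its keratinocyte levels were 2069.9 CPM, 233, 228 and 331 in that order. Rpl36 at 3.10, Rps20 at 2.98, Rps21 at 2.97, Rpl26 at 2.85, Rpl37 and Rpl22l1 at 2.82, Rplp1 at 2.81 and Rpl32 (ENSRNOG00000010746) at 2.80 completed the 10 highest. Rplp1, a stalk protein of the large subunit, went from 1208 to 1548 CPM in keratinocytes of the other libraries to 7551 in uninjected 1.

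At the other end, Rpl3, a large subunit protein near the catalytic centre, had the lowest shift at −0.83. In keratinocytes it had 2994 CPM in uninjected 1, 5994 in uninjected 2, 6347.5 in injected 1 and 6653 in injected 2. Rplp0, which binds Rplp1 in the stalk, had a shift of −0.65, with 6133 CPM in uninjected 1 and 10669 to 12294 in the other libraries. The next were Rpl7 at −0.39, Rpl13a at −0.36, Rps2 and Rpsa at −0.32, Rpl5 and Rps4x (ENSRNOG00000029574) at −0.30, Rps3a at −0.06 and Rps3 at 0.15. Rps3, which also takes part in DNA repair, had 2943 CPM in uninjected 1 and 2934 to 3598 in the others, so that uninjected 1 lay within their range. Partners of 1 complex thus lay far apart, Rplp1 at 2.81 and Rplp0 at −0.65. Rpl11, which binds the same ribosomal RNA as Rpl5 (−0.30), lay at 1.52, near the median of the members.

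**Figure D3:**
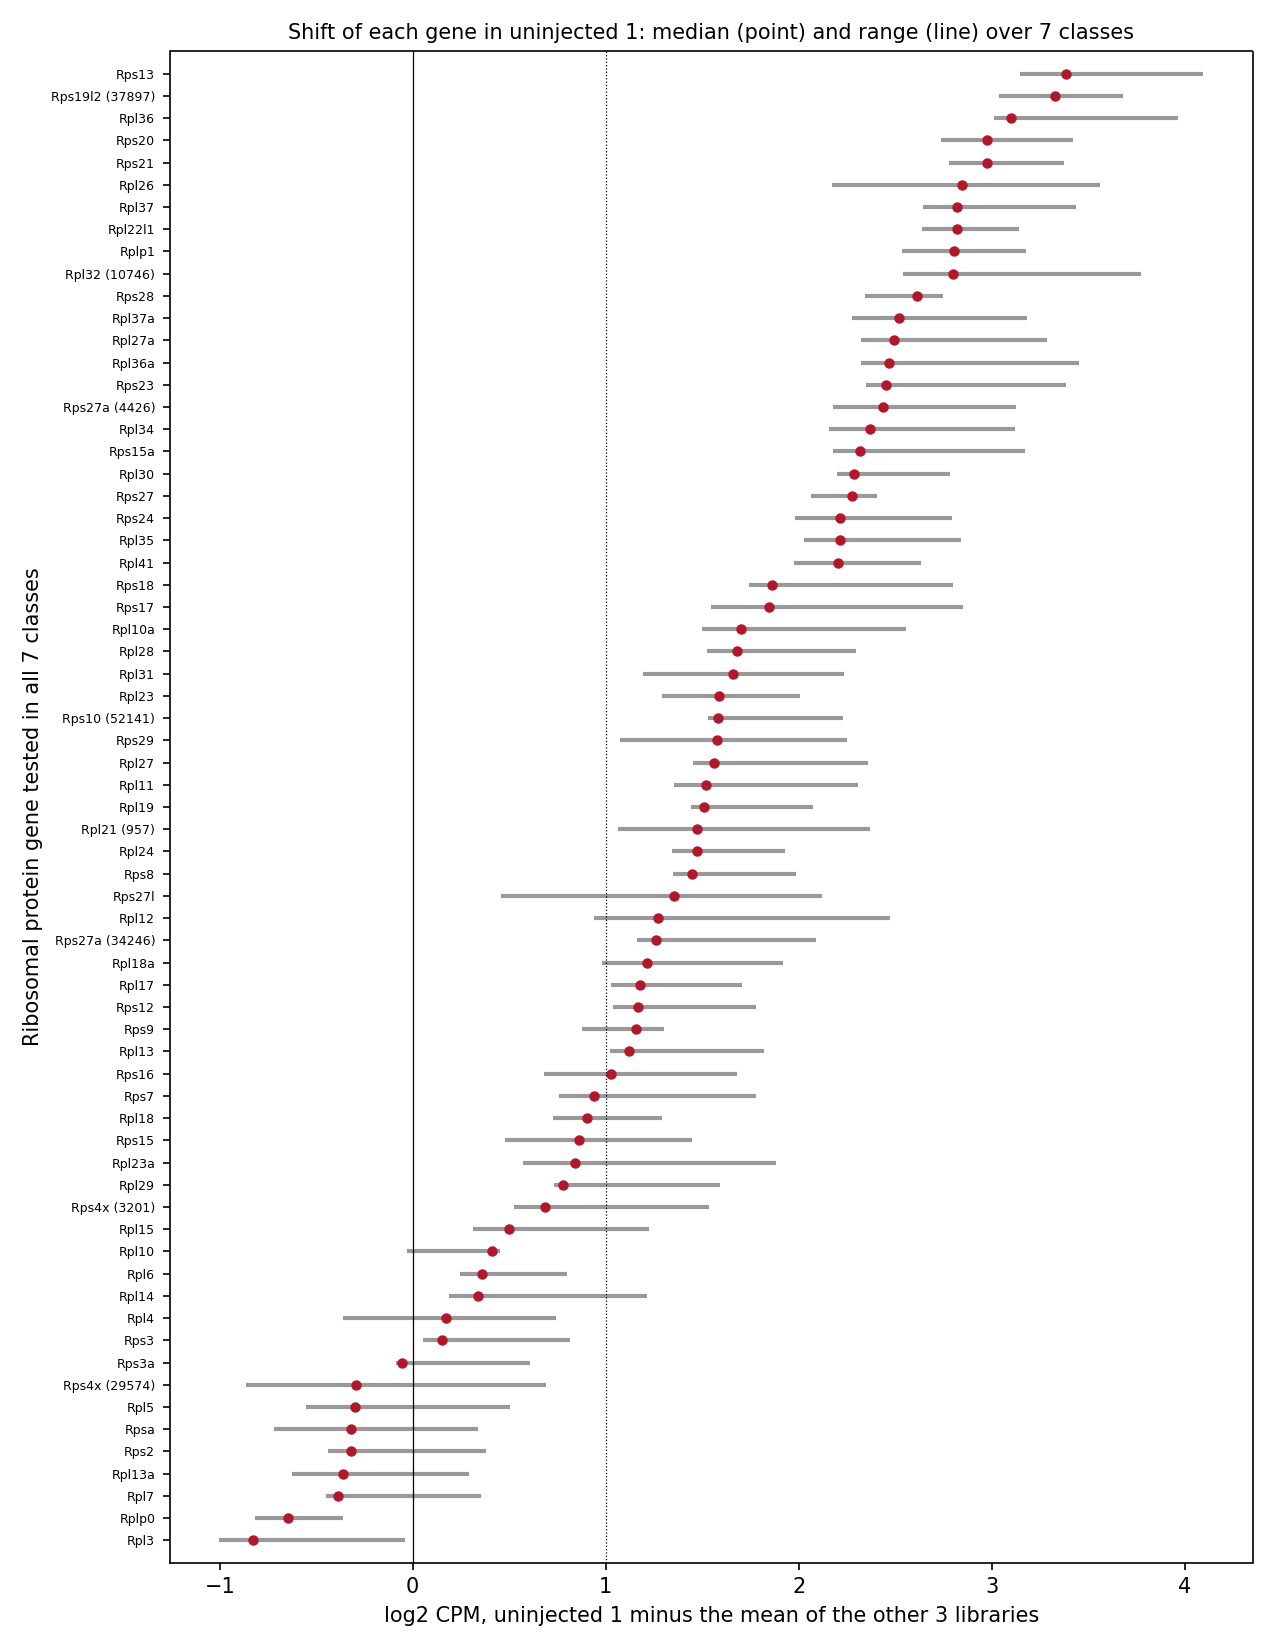
Shift of ribosomal protein genes tested in every class, all but 2 of them drawn, in uninjected 1 (x axis, log2 CPM less the mean of the other 3 libraries), ordered by median, with the point at the median and the line from the lowest to the highest of 7 classes. Values run from −0.83 for Rpl3 to 3.39 for Rps13, and numbers in brackets are the last digits of the gene identifier where a symbol has several rows.

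The order of the members was nearly the same in every class. Pearson's r of the shifts over the 69 genes lay between 0.945 and 0.998 in the 21 pairs of classes, which share their libraries, and genes are not independent replicates. The shifts in empty droplets, taken from log2(CPM + 1) of total UMIs, followed those of the cells with an r of 0.991 (Spearman's rho 0.991), over the same 69 genes and libraries. Rps13 had 3682 CPM in the empty droplets of uninjected 1 and 319.9 to 407.4 in the others, and Rpl3 had 3701 against 6894 to 7815. The shift was weakly related to the number of copies that RefSeq names as pseudogenes (r = −0.235, 66 standard members, over genes). With the level in the other 3 libraries, which is itself part of the shift, r was −0.486 over the 69 members. Among the 47 members with a start window, the median shift was 1.66 in the 35 with the motif near the start and 1.10 in the 12 without it. The ranges largely overlapped, at −0.65 to 3.39 with the motif and −0.83 to 3.10 without it. Several strongly shifted members (Rps21, Rps28, Rpl36, Rpl37, Rpl37a, Rpl41) are known as some of the shortest ribosomal proteins and several of those with shifts near or below 0 (Rpl3, Rpl4, Rplp0, Rps2, Rpl5) as some of the longest, but no length was measured here, and a relation to length was not tested.

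**Figure D4:**
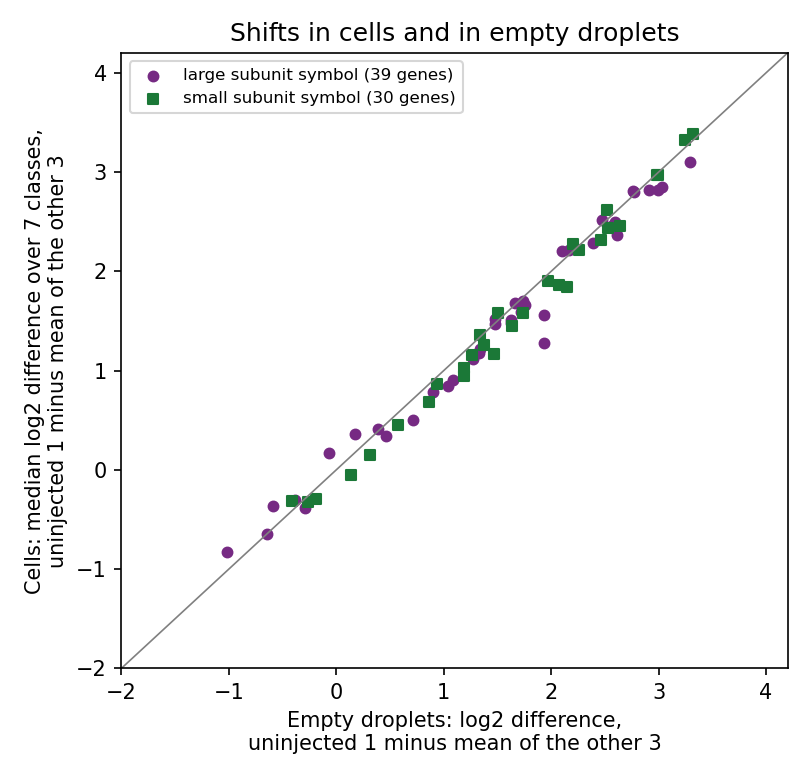
Shift of 69 ribosomal protein genes in uninjected 1 in empty droplets (x axis, log2) and in cells (y axis, median over 7 classes, log2), with circles for large and squares for small subunit symbols and a line where both are equal. The points lie along the line from Rpl3 at −0.83 to Rps13 at 3.39.

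The make-up of the ribosomal UMIs changed with the library too. In keratinocytes Rpl41 had 685 of every 10000 ribosomal UMIs in uninjected 1 and 331 to 366 in the other libraries. Rplp0 had 303 in uninjected 1 and 986 to 1079.6 in the others. None of the 17 elongation and initiation factors, the 12 biogenesis factors or the 23 mitochondrial ribosomal protein genes tested in every class exceeded the other libraries by 1 log2 unit in all classes.

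Between injected and uninjected wounds no ribosomal protein gene passed edgeR's quasi-likelihood test in any class. Of all genes 0.0377% of 13264 passed in fibroblasts, 0.0122% of 8176 in macrophages and 0% in neutrophils, keratinocytes, T and NK cells, endothelial cells and mast cells. At an unadjusted p under 0.05 there were 24 members of 81 in fibroblasts, 38 of 78 in macrophages, 34 of 76 in neutrophils, 9 of 85 in keratinocytes, 14 of 80 in T and NK cells, 1 of 76 in endothelial cells and 5 of 69 in mast cells. Of all genes 10.4%, 6.21%, 9.69%, 4.62%, 10.1%, 4.8% and 4.67% reached that p in the same order of classes, so that the endothelial members were below the share of all genes. The Wald test of DESeq2 called 7 members in neutrophils and 0 in the other classes. It called 0.68% of all genes in neutrophils, 1.36% in fibroblasts, 0.0489% in macrophages, 0.259% in keratinocytes, 0.524% in T and NK cells, 0.0132% in endothelial cells and 0% in mast cells. The members' median log2 difference (injected less uninjected) was −0.78 in endothelial cells to −1.43 in neutrophils, beside −0.06 to 0.02 for all genes.

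These differences came with uninjected 1. Without it the members' medians were −0.15 in neutrophils to 0.19 in endothelial cells, and 1 member was called, Rpl39l in fibroblasts, which rests on the 40 UMIs of uninjected 2 and is not read further. Of all genes 1.57% were called in fibroblasts, 1.12% in macrophages, 1.04% in neutrophils, 2.18% in T and NK cells and 0% in keratinocytes, endothelial cells and mast cells. Without uninjected 2, which leaves uninjected 1 alone on that side, members were lower in large number: 57 in fibroblasts, 50 in macrophages, 62 in neutrophils, 45 in keratinocytes, 53 in T and NK cells, 40 in mast cells and 0 in endothelial cells. Of all genes 5.11%, 4.16%, 7.84%, 3.13%, 5.33%, 7.41% and 0% were lower in those classes. The only member called higher there was Rpl3 in T and NK cells, by 0.99 (edgeR, adjusted p = 0.0361). A fit with 1 uninjected library assumes that it varies like the injected ones.

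**Figure D5:**
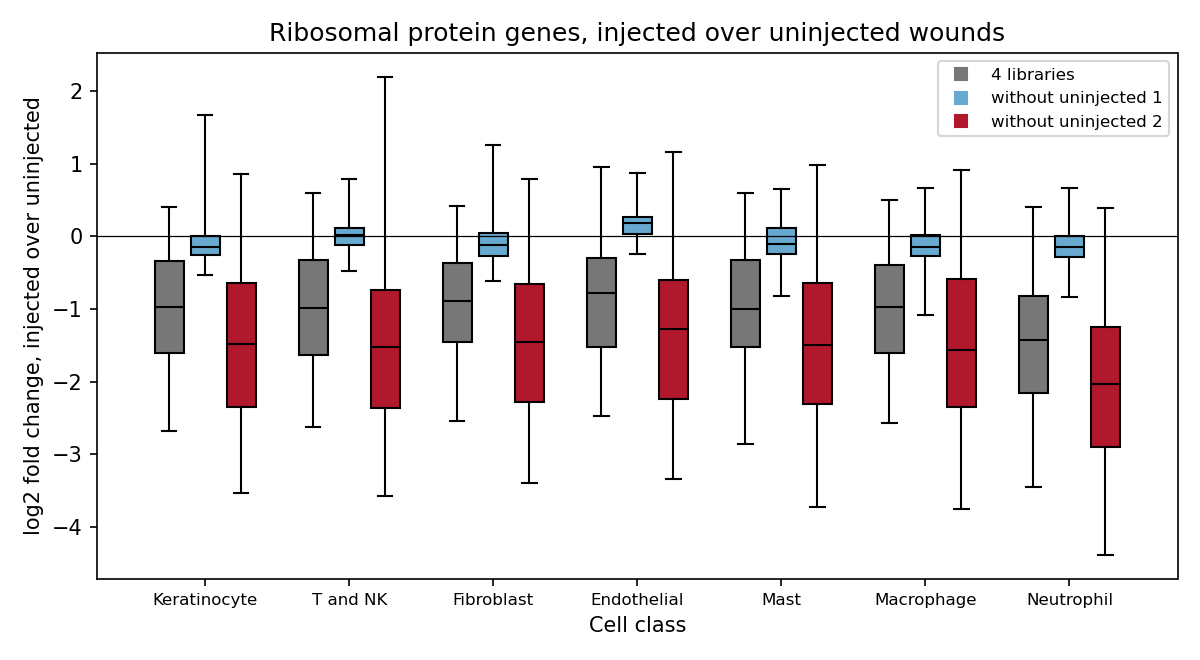
Log2 fold change of ribosomal protein genes, injected over uninjected (y axis), by class (x axis), with boxes over the members for quartiles and median, whiskers to the extremes, and colours for the 4 libraries, without uninjected 1 and without uninjected 2. Medians are −0.78 to −1.43 with all libraries and near 0 without uninjected 1.

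Rps20, of the small subunit, had one of the 3 smallest p-values in 6 of the 7 classes. In fibroblasts it had 3145 CPM (TMM scale) in uninjected 1, 565 in uninjected 2, 456 in injected 1 and 405 in injected 2. Its log2 difference there was −2.11 (SE 0.73, adjusted p = 0.436 by edgeR) and −0.41 without uninjected 1. In macrophages it was −2.37 (SE 0.70, adjusted p = 0.701) and −0.38 without uninjected 1, and in mast cells −2.86 and −0.71. In endothelial cells Rpl9 and Rps4y2 were higher in both injected libraries: Rpl9, of the large subunit, had 29.4 and 33.9 CPM in the uninjected and 58.8 and 65.9 in the injected libraries (log2 difference 0.96, SE 0.34, adjusted p = 0.820). Rps4y2 had 42.8 and 47.2 against 69.8 and 87.9 (0.79, SE 0.33, adjusted p = 0.820). Both genes were named for their small p, and how many of all genes part the groups in this way was not counted. In neutrophils Rps9 had 2648, 1733, 789 and 1118 CPM (log2 difference −1.20, SE 0.39, adjusted p = 0.502), and −0.84 without uninjected 1. In fibroblasts Rps19bp1 (−1.25, adjusted p = 0.389) and in keratinocytes Rps4y2 (−0.48, adjusted p = 0.829) were lower in both injected libraries, and Rps4y2 was also at −0.48 without uninjected 1. The other members of smallest p were lower in the injected libraries, among them Rpl36al in fibroblasts (−1.72), Rps21 and Rpl10a in macrophages (−2.28 and −1.60), Rpl10a in neutrophils (−2.18) and Rps25 in keratinocytes (−2.64). Rps21 and Rpl36 had −2.36 and −2.27 in T and NK cells, Rpl26 had −2.11 in endothelial cells, and Rps21 and Rpl31 had −2.59 and −1.31 in mast cells.

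The share of UMIs from ribosomal protein genes was 15.8 ± 6.22% in uninjected and 10.8 ± 1.23% in injected keratinocytes (SD, n = 2). It was 13.9 ± 5.18% and 8.81 ± 0.111% in fibroblasts, 8.23 ± 3.98% and 4.60 ± 0.387% in macrophages and 3.21 ± 2.34% and 1.36 ± 0.245% in neutrophils. The exact two-sided permutation test of 2 against 2 libraries cannot give a p below 0.333. It gave 0.333 in fibroblasts, macrophages, neutrophils and mast cells, 0.667 in keratinocytes and 1 in T and NK and endothelial cells. Without uninjected 1 the difference fell from −5.09 to −0.693 percentage points in keratinocytes and from −5.06 to −1.40 in fibroblasts. It turned from −3.76 to 0.695 in T and NK cells and from −2.91 to 0.918 in endothelial cells.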

How the data were processed

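Libraries were 2 from injected and 2 from uninjected wounds. The deposited matrices hold UMI counts per gene and barcode for every barcode. Cell Ranger made them, in version 7.2.0 per the file headers and 5.0.1 per the submitters' processing notes. Build, annotation and the handling of introns: not given in the sources used here. RefSeq tables of GRCr8 served for names and start windows only.

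Cells were called per library against the free RNA profile (500 or more UMIs, false discovery rate 0.01, 250 or more genes, at most 20% mitochondrial UMIs). The highest doublet scores (Scrublet in scanpy 1.11.5, 0.8% per 1000 cells) were removed. A marker counted in a cell only above the 99% Poisson quantile of the free RNA of barcodes with 50 to under 250 UMIs. A class needed 2 such markers and 1 more than any other class, which left 3725 cells in no class. These thresholds were set after the data were seen. Between 70.7% (endothelial cells) and 99.6% (keratinocytes) of a class lay in Leiden clusters of the same name, made without member genes.

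UMIs were summed per class and library, and tested in R 4.3.3 with edgeR 4.0.16 (filterByExpr, TMM, quasi-likelihood, Benjamini-Hochberg over all genes, threshold 0.05). DESeq2 1.42.0 was an alternative. Class contrasts had library as a term. On simulated counts edgeR recovered 94.0% of 200 genes changed 4-fold between injected and uninjected fibroblasts, and 76.5% in macrophages. The simulation gave every gene the same dispersion and held no library apart from the rest as uninjected 1 is. These rates therefore do not tell how many such changes would be found in the real counts. Named were the 3 members of smallest p per class between injected and uninjected wounds, those of the 3 largest and 3 smallest changes called per class, the 10 highest and lowest shifts in uninjected 1, and a fixed list of relatives. Possible free UMIs were taken as the median UMIs of those barcodes times their profile. Alternatives were other scalings, filters, gates, clusters and left-out libraries. Members, lists and the rule were chosen with earlier results of these data known. A few genes that the rule names are not reported here.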

Additional observations from a re-analysis of the deposited data

How the results depend on the processing

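Class differences in share kept their direction in all 77 alternatives. Injected less uninjected share reversed without uninjected replicate 1 in T and NK cells (0.695 percentage points, range over left-out libraries −8.21 to 0.695) and endothelial cells (0.918, range −6.73 to 0.918). The cause was not tested.

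Of 0 members called between injected and uninjected wounds by edgeR, with no filter on low counts there were 31 in fibroblasts, 19 in macrophages, 41 in neutrophils, 28 in T and NK cells and 9 in endothelial cells (of all genes 4.12%, 0.702%, 2.65%, 3.04% and 0.98%), and with DESeq2 7 in neutrophils. With 1 library left out the counts were 0 to 57 in fibroblasts, 0 to 50 in macrophages, 0 to 62 in neutrophils, 0 to 45 in keratinocytes, 0 to 54 in T and NK cells and 0 to 40 in mast cells. The libraries share replicate numbers, but the labels name no shared animal or day. Deviations of same-numbered libraries had r −0.118 to 0.273 over genes, which cannot tell whether the libraries were paired. The replicate block called 0 members in all 7 classes. A crossed replicate block, added after seeing the data, called 10 members in macrophages, beside 82 of 8176 genes. It called 0 members in fibroblasts, neutrophils and T and NK cells, beside 19 of 13264, 31 of 8824 and 84 of 9168 genes.

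Members called by class on the scale of all genes numbered 31 in T and NK cells, 16 with no filter, 74 with total UMIs and 47 with the stricter gate. All genes called there were 6477 of 12015, 6564 of 20050, 7418 of 12015 and 6524 of 11613. With total UMIs there were 53 members in endothelial and 18 in mast cells, beside 6841 and 3610 of 12015 genes. With Leiden clusters there were 22 members in mast cells, beside 3012 of 12290 genes. With 1 library left out the counts were 23 to 41 in macrophages, 11 to 36 in T and NK cells and 4 to 11 in endothelial cells. All genes called then numbered 3347 to 4676, 5177 to 6259 and 2673 to 4061 in these classes. Within ribosomal UMIs and with no filter there were 8 in keratinocytes, 10 in T and NK cells, 6 in endothelial and 10 in mast cells. With 1 library left out there were 11 to 27 in fibroblasts, 2 to 9 in macrophages, 22 to 42 in neutrophils, 6 to 13 in keratinocytes, 6 to 17 in T and NK cells, 4 to 9 in endothelial and 6 to 19 in mast cells. Fewer libraries were fitted there. The 35 members raised in uninjected 1 became 15 at 2 log2 units, and 0, 0 and 0 were raised in uninjected 2, injected 1 or injected 2 put in its place. Shallow classes limit single genes: mast cells of uninjected 1 held 119648 UMIs.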

Other observations

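Smaller cell classes, which had under 50 cells in at least 1 library, were left out of the comparisons. Skeletal muscle cells (26, 20, 50 and 7 cells in uninjected 1, uninjected 2, injected 1 and injected 2) gave 24.5%, 11.6%, 11.3% and 11.2% of their UMIs to ribosomal protein genes. Dendritic cells had 12.4%, 6.80%, 6.53% and 6.84%, and mural cells 13.1%, 6.92%, 6.05% and 8.5%.

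Within keratinocytes, suprabasal cells (at least 2 of Krt1, Krt10 and Krtdap) had 21.6%, 12.1%, 10.9% and 12.4% and basal cells (Krt15 or Col17a1, none of those) 19.0%, 11.1%, 9.43% and 11.2%, higher in the suprabasal cells in each library. Suprabasal cells were also deeper, with medians of 21670 to 27593 UMIs against 6732 to 13238.5, and the part of depth was not tested. Fibroblasts with a UMI of Mki67 or Top2a, genes of dividing cells, had 19.2%, 10.6%, 9.25% and 9.43%, and those without 15.7%, 9.32%, 8.07% and 8.30%. Detecting these genes depends on depth as well. With the cells of a class split at their median depth, deeper fibroblasts had 19.4%, 10.7%, 9.25% and 9.54% and shallower ones 11.5%, 9.06%, 7.44% and 7.33%. Deeper keratinocytes had 21.7%, 11.9%, 10.4% and 12.0% and shallower ones 14.5%, 10.2%, 8.32% and 10.5%. The direction was the opposite in T and NK cells of all 4 libraries (17.6%, 9.02%, 10.2% and 9.71% in deeper, 19.9%, 10.2%, 10.4% and 10.4% in shallower cells) and in neutrophils of uninjected 1 (4.27% and 5.84%). Deeper cells were also lower in endothelial cells of uninjected 2 (7.38% and 7.64%). The same held in mast cells of uninjected 2 (7.31% and 7.69%) and, barely, of injected 1 (5.80% and 5.81%).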
